A study of Rattus norvegicus with 2 samples.

Results

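Clathrin-mediated uptake and endosomal sorting decide which membrane proteins of a neuron are internalised, recycled or degraded. Clathrin triskelia assemble into a cage on adaptor complexes, dynamin cuts the vesicle free, and the vesicle fuses with an early endosome. From there retromer and sorting nexins return cargo to the Golgi or the plasma membrane, while ESCRT complexes pack ubiquitinated cargo into vesicles bound for the lysosome. At synapses the same coat machinery retrieves synaptic vesicle membrane and glutamate receptors. N6-methyladenosine (m6A) is a methyl mark on adenosines of mRNA that reader proteins bind.

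The genes described here are those whose name in the list of peaks begins as a sorting nexin (Snx), vacuolar protein sorting (Vps), charged multivesicular body (Chmp) or AP-1 to AP-4 adaptor gene, or is that of a dynamin, a clathrin chain, Eps15, an epsin, an intersectin, Picalm, Snap91, Eea1 or Hgs. They were chosen by name alone, with earlier results of these data known. In all, 53 of the 4209 listed genes met the rule, with 120 of the 8512 listed peaks. The current gene table holds 119 coding genes with such names. Of these, 44.5% had a peak listed under such a name, and 45.4% when counted by current symbol. Over all 23154 coding genes, a set that includes genes neurons do not express, the share by current symbol was 17.3%. A gene without a listed peak may have lacked the mark, the transcript or enough reads, and these cannot be told apart here. The rule takes Vps72, a chromatin protein of histone exchange complexes, and Hgsnat, a lysosomal acetyltransferase, by spelling alone. Both are kept in the counts and described last. Chmp1b2, which stands under a clone-based name in the list, would qualify by its current symbol, with 1 peak (8.73-fold, score 98.52) on the X chromosome.

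The data came from 2 libraries of primary hippocampal neurons of newborn (P0) Sprague-Dawley rats, both given lead acetate (PbAc) on day 12 in vitro and kept with it for 48 h, after Ara-C on day 7. The Pb-IP library holds RNA recovered by an anti-m6A antibody, and the Pb-Input library the RNA before the pull-down. The dose is written as 5 mM in the sample labels and as 5 μM in the study's design text, and the end of exposure as day 13 or day 14. No lead-free neurons were analysed here, and none of the values measures what lead changed. With 1 library per group no value has a replicate check, no test between samples was possible, and the depth is unknown because the table holds no read counts. Fold enrichment is the authors' linear ratio of IP over background for each peak. The score is 10 times the −log10 of the authors' p, so a score of 100 is a p of 1e-10. The false discovery rate deposited beside it was 100% for each of the 8512 peaks, so a low p does not mean that a peak passed such a rate. Of 12 neuron markers, 8 had a peak (Tubb3, Nefl, Dcx and Stmn2 had none), with highest folds from 6.22 (Rbfox3) to 70.97 (Gap43) and each at a p of at most 1e-10. Of 29 markers of astrocytes, oligodendrocytes, microglia, vessels and fibroblasts, 5 had a peak (Sox9, Cnp, Aif1, C1qa and Col3a1), from 3.52 to 7.2-fold, and 1 of these (Col3a1) reached that p. Among those without a peak were Gfap, Aqp4, Mbp, Cx3cr1 and Pecam1.

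The member peaks ranged from 2.77-fold in Snx9, a nexin of endocytic membrane curvature, to 40.42-fold in Chmp3, an ESCRT-III subunit, with a median of 6.29 against 5.9 over all listed peaks. Of the 120 peaks, 30 (25%) reached 10-fold, against 17.3% of all peaks, 46 (38.3%) had a p of at most 1e-10, against 32.9%, and 90 (75%) a p of at most 0.05, against 71.8%. By gene, 25 of 53 (47.2%) reached a p of at most 1e-10, against 40.6% of listed genes, and 17 (32.1%) reached 10-fold, against 24.2%. All 17 were also among these 25. At the weak end, 11 members (20.8%, against 22.9% of listed genes) had no peak with a p of 0.05 or less, their highest folds running from 3.49 in Ap1s2 to 5.65 in Ap2b1. The members' regions were a median of 138 bases long, against 161 in the whole table. These are descriptions of a single IP and input pair.

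**Figure D1:**
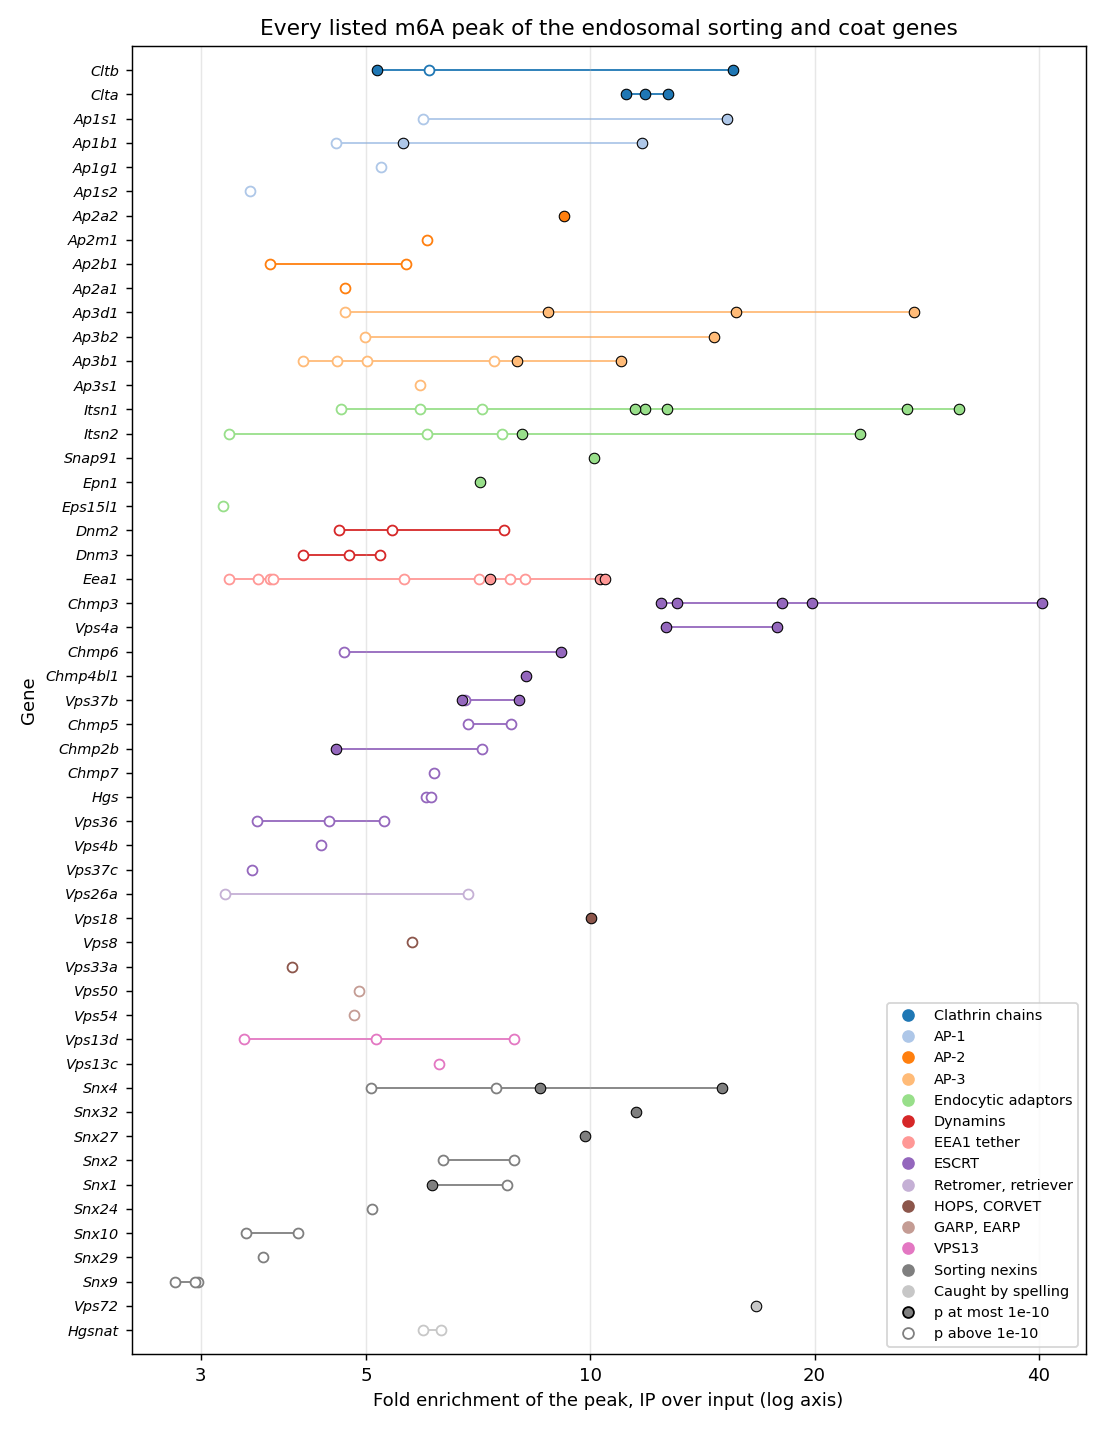
Fold enrichment (log axis) of each of the 120 listed peaks, with 1 row per gene, grouped by role and ordered within a role by the gene's highest fold. Filled points have a p of at most 1e-10, open points a higher p, and lines join a gene's lowest and highest peak. Chmp3, Itsn1, Ap3d1 and Itsn2 reach above 20-fold, and among genes with several peaks those of Chmp3, Clta and Vps4a are all filled.

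Both clathrin light chains, the regulatory subunits that bind the heavy chain, had 3 peaks. Those of Clta, in the order of the chromosome, were at 11.85, 11.18 and 12.71-fold with scores of 878.64, 906 and 510.7. Those of Cltb were at 5.17, 6.07 and 15.55-fold with scores of 318.34, 33.38 and 3100, the last a value that 168 peaks of the table share. The Clta peaks thus lay close together in fold, whereas those of Cltb differed, with 2 at a p of at most 1e-10 and the highest fold at bases 12677186 to 12677303 of chromosome 17. The heavy chain gene Cltc, which forms the legs of the triskelion, was not listed.

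Among the adaptor complexes that link clathrin or cargo to membranes, 12 of 24 subunit genes had a peak (50%, against 17.3% of all coding genes). AP-3, which sorts cargo from endosomes to lysosomes and synaptic vesicles, had the strongest. Its delta subunit gene Ap3d1 had peaks of 4.68, 27.21, 8.77 and 15.67-fold with scores of 16.07, 3100, 420.23 and 825.26. The strongest region spanned bases 12033030 to 12033217 of chromosome 7, and the region at 8.77-fold lay between it and the one at 15.67-fold. The neuronal beta subunit gene Ap3b2 had a peak of 14.66-fold (score 2173.08) and another of 4.99-fold (score 8.5). Its widely expressed counterpart Ap3b1 had 6 peaks of 4.57, 7.42, 10.99, 7.97, 5.01 and 4.12-fold, of which those at 10.99 (score 486.13) and 7.97 (score 156.4) had a p of at most 1e-10. The sigma subunit gene Ap3s1 had 1 peak of 5.91-fold. The medium subunit genes Ap3m1 and Ap3m2 and the sigma gene Ap3s2 were not listed.

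AP-1 works between the trans-Golgi network and endosomes. Its small subunit gene Ap1s1 had peaks of 15.24-fold (score 252.73) and 5.97-fold (score 32.19). The beta subunit gene Ap1b1 had peaks of 11.72, 5.6 and 4.55-fold with scores of 203.94, 104.61 and 37.54. The gamma subunit gene Ap1g1 stood at 5.23-fold with a score of 13.44 and Ap1s2 at 3.49-fold with a score of 3.19, a p of 0.48. Both were therefore weak by p. Ap1g2, Ap1m1, Ap1m2 and Ap1s3 were not listed.

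AP-2, the adaptor of the plasma membrane, was listed in 4 of its 5 genes (80%, against 17.3% of all coding genes). None of these 4 reached 10-fold. The alpha subunit gene Ap2a2 had 1 peak of 9.21-fold (score 213.6), the only AP-2 peak with a p of at most 1e-10. The other alpha gene Ap2a1 stood at 4.68-fold (score 9.84) and the medium subunit gene Ap2m1, whose product binds cargo motifs, at 6.03-fold (score 14.09). The beta subunit gene Ap2b1 had peaks of 5.65 and 3.71-fold with scores of 3.14 and 3.22, p values of 0.485 and 0.476. A fold above 5 in Ap2b1 thus carried almost no support by p. Ap2s1 was not listed, nor was any of the 4 AP-4 genes. The median highest fold was 12.8 over the 4 listed AP-3 genes, 8.48 over the 4 of AP-1 and 5.84 over the 4 of AP-2. These genes held 13, 7 and 5 peaks in the same order. Over all listed genes the highest fold also rose with peak number, from a median of 5.45 with 1 peak to 12.7 with 6 or more.

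**Figure D2:**
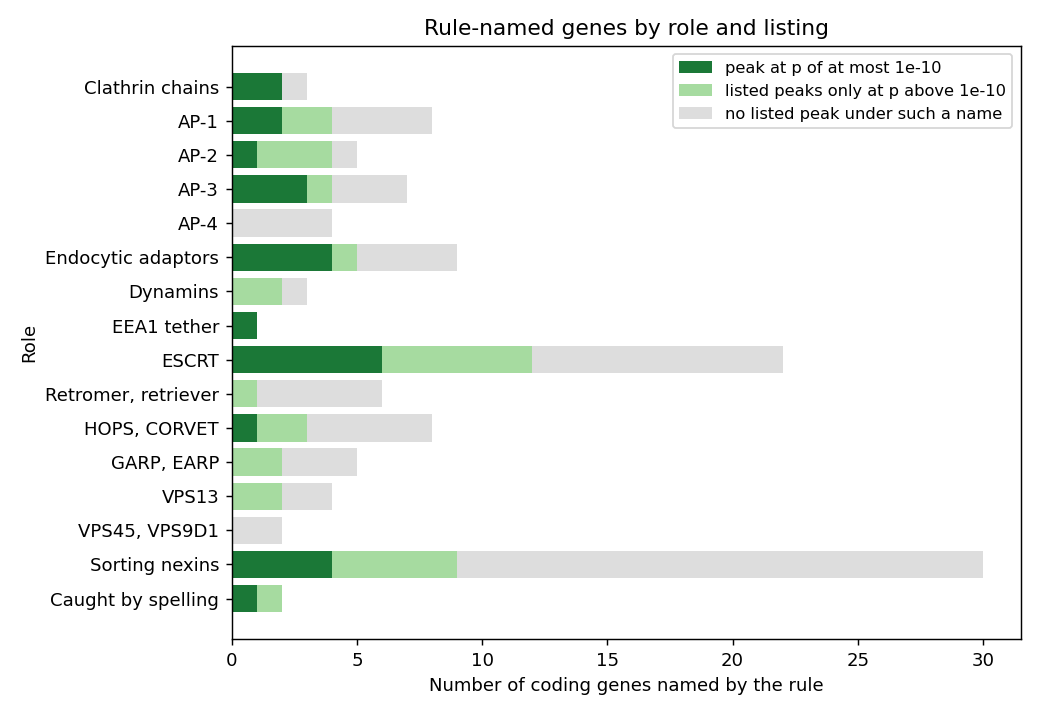
Number of coding genes named by the rule in each role, split into genes that reached a p of at most 1e-10 (dark green), genes listed only at a higher p (light green) and genes with no listed peak under such a name (grey). ESCRT had 12 of 22 genes listed, sorting nexins 9 of 30, and AP-4 0 of 4.

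Of the adaptors and scaffolds of the endocytic pit, the intersectins had the most peaks. Intersectins are multidomain scaffolds that hold epsins, dynamin and actin regulators at the pit. Itsn1 had 8 peaks of 7.16, 11.85, 31.22, 4.62, 11.47, 26.64, 12.69 and 5.9-fold in chromosome order. The peaks at 31.22 and 26.64-fold both had a score of 3100, and 5 of the 8 had a p of at most 1e-10. The strongest spanned bases 35581649 to 35581911 of chromosome 11. Itsn2 had 5 peaks of 6.04, 23.01, 3.27, 8.1 and 7.62-fold, with its strongest (score 1922.81) at bases 39717190 to 39717452 of chromosome 6. In Itsn2 the highest fold was 7.04 times the lowest, the widest spread within any of the 29 members with several peaks, where the median ratio was 1.66. Such ratios were not computed for the other listed genes.

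The strongest peak of each paralog and the one listed after it had the same lengths in both genes, while the regions before and after them did not. In both genes a region of 263 bases had the highest fold of the gene (31.22 in Itsn1, 23.01 in Itsn2), and the next listed region, of 150 bases, had the lowest (4.62 and 3.27). The gap between these regions was 1647 bases in Itsn1 and 1198 in Itsn2. Only 8 of the 8512 listed peaks were 263 bases long (0.094%), and 56 were 150 bases long (0.658%). Of 13 pairs of related genes set side by side, 7 had peaks in both genes, and 3 of their 71 cross-gene pairs of peaks were equal in length. The other equal pair was a region of 118 bases, at 11.18-fold in Clta and at 15.55-fold in Cltb, a length that 47 listed peaks have (0.552%). The match in length was noticed after the values had been seen, and whether these regions are corresponding exons was not analysed here.

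**Figure D3:**
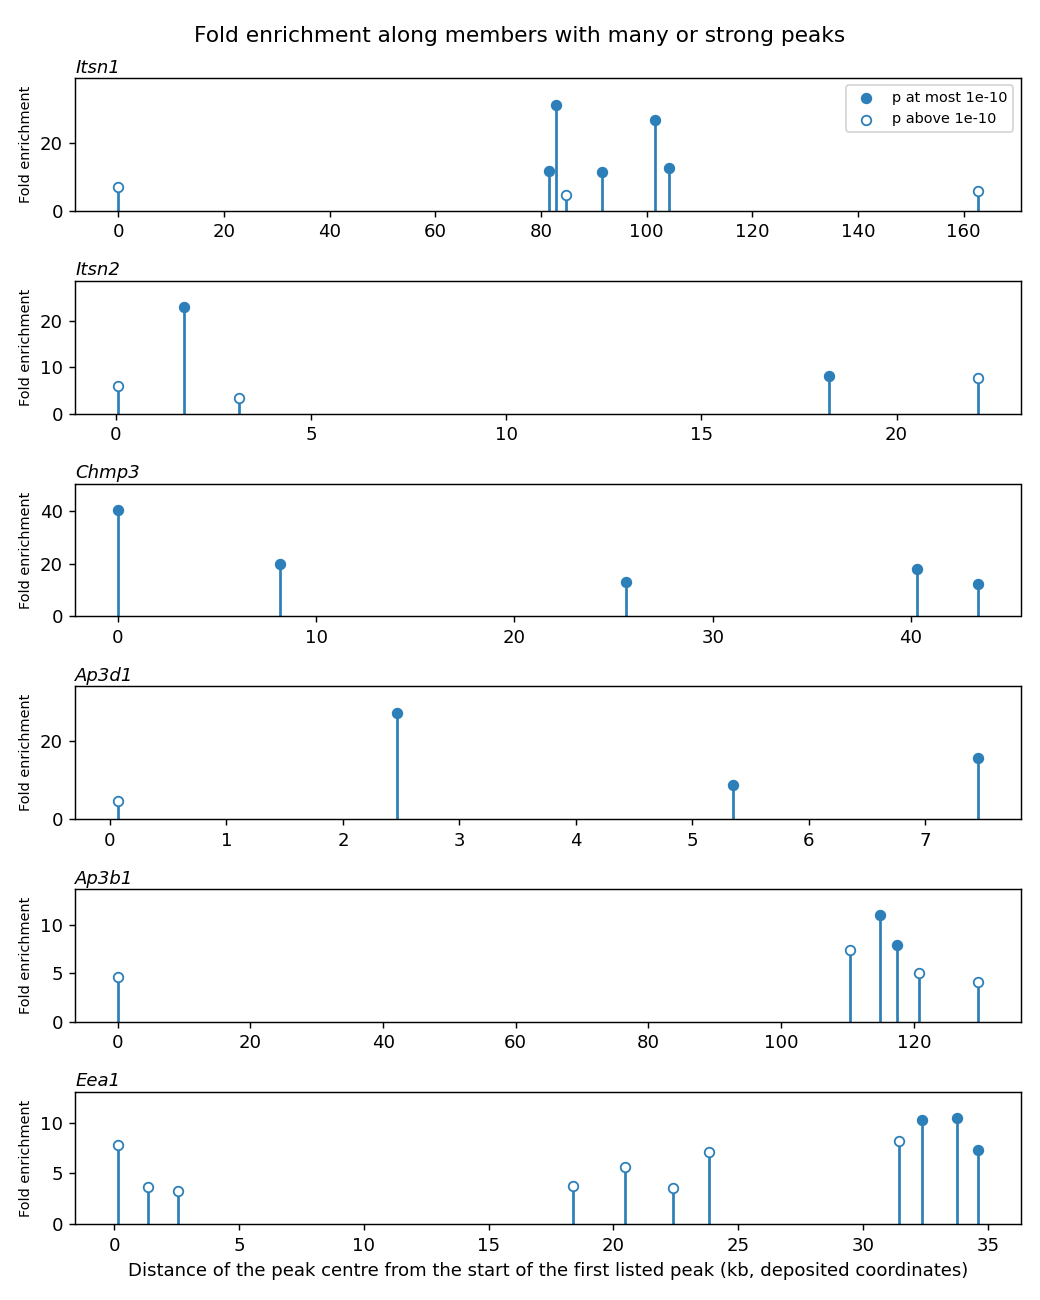
Fold enrichment of each listed peak of 6 members against the distance of its centre from the start of the gene's first listed peak, in kb of the deposited coordinates. Filled points have a p of at most 1e-10. Itsn1 and Itsn2 each show their tallest point followed directly by their lowest, and the 3 filled points of Eea1 lie at the right end.

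Snap91 (AP180), the neuronal clathrin assembly protein that sets synaptic vesicle size, had 1 peak (10.11-fold, score 574.29), and its widely expressed relative Picalm was not listed. Epn1, an epsin that bends the membrane of the pit, had 1 peak (7.1-fold, score 429.69), and Epn2 and Epn3 were not listed. Eps15l1, a scaffold of the pit's rim, had 1 peak (3.21-fold, score 15.27), and Eps15 was not listed. In each of these families a single member carried the listed peak. The dynamins, GTPases of vesicle scission, had peaks of lower fold. Dnm2, expressed in all tissues, had peaks of 5.41, 7.65 and 4.6-fold, and Dnm3, found in brain, had peaks of 4.74, 5.22 and 4.11-fold. Their highest scores were 24.57 and 76.88, so neither reached a p of 1e-10. Dnm1, the main dynamin of nerve terminals, was not listed.

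Eea1 encodes the coiled-coil tether that captures vesicles at the early endosome, and it had more peaks than any other member. Its 11 peaks were at 7.79, 3.71, 3.27, 3.75, 5.63, 3.58, 7.08, 8.17, 10.29, 10.45 and 7.34-fold in chromosome order, spread over 34701 bases of chromosome 7. The 3 peaks with a p of at most 1e-10 were the last 3 of this order, with scores of 275.14, 516.21 and 271.33. The strongest region of Eea1 spanned bases 37216759 to 37216944.

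ESCRT complexes recognise ubiquitinated cargo and bud vesicles into the endosome. Of their 22 genes, 12 were listed under a name the rule takes (54.5%, against 17.3% of all coding genes). The 22 include Chmp1b2, whose peak stands under a clone-based name and is not counted in the 12. Chmp3, an ESCRT-III subunit of the filament that narrows the bud's neck, had the highest fold of all members and ranked 49 among the 4209 listed genes by highest fold. Its 5 peaks were at 40.42, 19.83, 13.08, 18.06 and 12.45-fold with scores of 2149.22, 1142.99, 972.78, 620.5 and 697.53. All 5 were above 10-fold and had a p of at most 1e-10. The strongest was 66 bases long, at bases 164228516 to 164228581 of chromosome 4. Vps4a, the ATPase that takes the filament apart, had peaks of 17.81 and 12.64-fold with scores of 562.48 and 1136.66. Its paralog Vps4b had 1 peak (4.35-fold, score 3.82), a p of 0.415. The highest folds of this pair differed 4.09-fold, the widest gap among the 7 pairs with both genes listed.

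The other ESCRT-III genes were weaker than Chmp3. Chmp6 had peaks of 9.13 and 4.67-fold with scores of 149.05 and 7.73, and Chmp2b, mutated in a familial dementia of humans, had peaks of 4.55 and 7.16-fold with scores of 147.48 and 76.96. Chmp5 had peaks of 6.86 and 7.83-fold and Chmp7 1 peak of 6.16-fold, none with a p of at most 1e-10. Chmp4bl1, a gene named as a copy of Chmp4b, had 1 region of 1038 bases at 8.19-fold (score 800.49). Because a copy can share reads with its parent gene, the assignment of that region is uncertain, and Chmp4b itself was not listed. Upstream of these, Hgs, the ESCRT-0 subunit that binds ubiquitin first, had peaks of 6.01 and 6.12-fold with scores of 52.65 and 27.11. Of the ESCRT-I genes, Vps37b had peaks of 6.79, 6.73 and 8.03-fold, of which 2 had a p of at most 1e-10, and Vps37c stood at 3.51-fold with a score of 9.58. Vps36 of ESCRT-II had peaks of 5.28, 3.57 and 4.46-fold with scores of 12.04, 9.71 and 5.25, none with a p of 0.05 or less. Chmp1a, Chmp1b, Chmp2a, Chmp4b, Chmp4c, Vps25, Vps28, Vps37a and Vps37d were not listed.

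**Figure D4:**
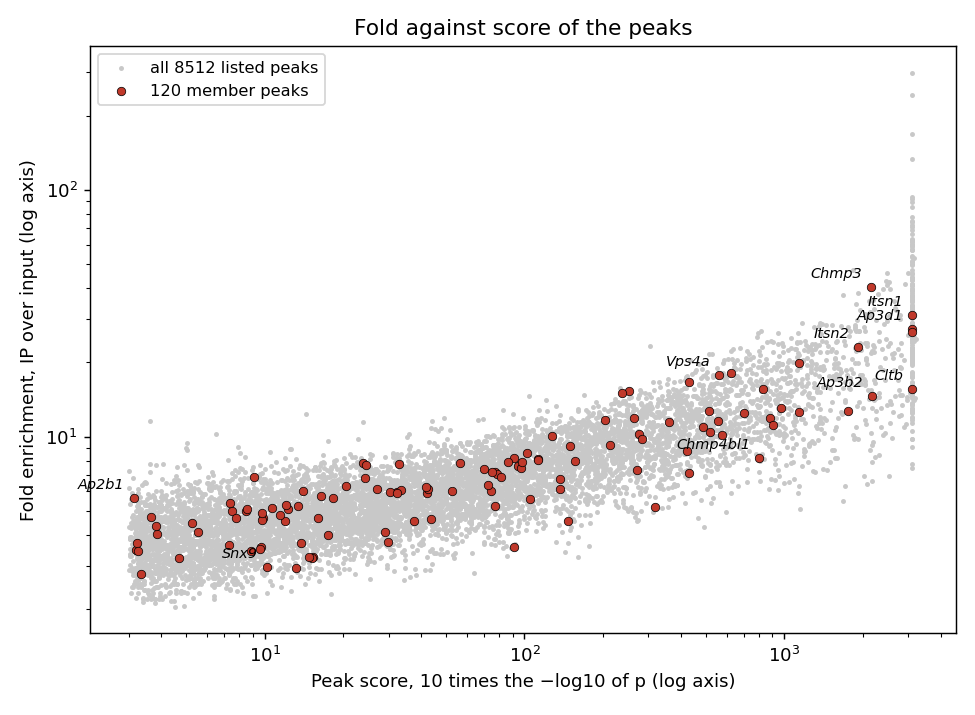
Fold enrichment against score, both on log axes, for all 8512 listed peaks (grey) and the 120 member peaks (red), with the strongest peak of 10 members named. Member peaks spread along the score axis, from Ap2b1 at a score of 3.14 to 4 peaks at a score of 3100. None lies above 40.42-fold, whereas the listed peaks reach 298.33-fold.

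Retromer is the coat that retrieves cargo from endosomes. Of 6 genes of retromer and the related retriever complex, 1 was listed (16.7%), a share near the 17.3% of all coding genes. This was Vps26a, with peaks of 3.23 and 6.85-fold and scores of 4.68 and 81.34. Vps35, Vps29 and Vps26b, the other core retromer genes, were not listed, nor were the retriever genes Vps35l and Vps26c.

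Sorting nexins bind endosomal phosphoinositides through a PX domain, and 9 of 30 were listed (30%, against 17.3% of all coding genes). Snx4, which recycles the transferrin receptor and autophagy proteins, had the strongest, with peaks of 7.48, 5.08, 8.56 and 15.03-fold and scores of 97.32, 8.58, 102.3 and 237.65. Snx32, a brain-enriched relative of the retromer-linked Snx6, had 1 peak (11.53-fold, score 556.36.) Snx27, which binds PDZ motifs of glutamate and adrenergic receptors, had 1 region of 425 bases at 9.83-fold with a score of 283.85. Snx1 and Snx2, the paired nexins that form tubules on endosomes, had similar folds, though only Snx1 had a peak with a p of at most 1e-10. Snx1 stood at 6.13 and 7.74-fold with scores of 136.36 and 32.92, and Snx2 at 6.35 and 7.91-fold with scores of 72.35 and 86.28. Their highest folds differed by a factor of 1.02.

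Snx9, which couples dynamin to actin, had 3 peaks of 2.97, 2.95 and 2.77-fold with scores of 10.22, 13.18 and 3.35, the lowest folds of all members. Snx24 (5.09-fold, score 12.25), Snx10 (3.45 and 4.05-fold, scores of 3.27 and 3.87) and Snx29 (3.64-fold, score 7.27) had no peak with a p of 0.05 or less. Snx24 lies beside Snx2 on chromosome 18, and their nearest listed peaks were 30532 bases apart. Snx3, Snx5, Snx6 and Snx17, which also serve endosomal retrieval, were among the 21 nexin genes not listed.

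Of the complexes that tether vesicles and endosomes, the HOPS and CORVET group, which counts Vps33b here, had 3 of 8 genes listed (37.5%). GARP and EARP had 2 of 5 (40%), and both shares stand against 17.3% of all coding genes. Vps18, a core subunit of HOPS and CORVET, had 1 region of 1325 bases, the longest of the members, at 10.02-fold with a score of 127.53. It spanned bases 117657601 to 117658925 of chromosome 3. Vps8, a CORVET subunit, stood at 5.77-fold with a score of 16.42, and Vps33a, which holds SNARE proteins, at 3.98-fold with a score of 17.5. Vps11, Vps16, Vps33b, Vps39 and Vps41 were not listed. Vps50 of EARP (4.89-fold, score 9.81) and Vps54 of GARP (4.81-fold, score 11.43) were weak, and Vps51, Vps52 and Vps53 were not listed. Of the VPS13 proteins, which carry lipids between membranes, Vps13d had peaks of 7.91, 3.43 and 5.15-fold with a highest score of 98.08, and Vps13c 1 peak (6.26-fold, score 41.64.) None of these except Vps18 had a p of at most 1e-10. Vps13a, Vps13b, Vps45 and Vps9d1 were not listed.

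The genes taken by spelling alone were Vps72, with 1 peak (16.67-fold, score 429.61), and Hgsnat, with peaks of 6.31 and 5.96-fold and scores of 20.59 and 30.34.

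**Figure D5:**
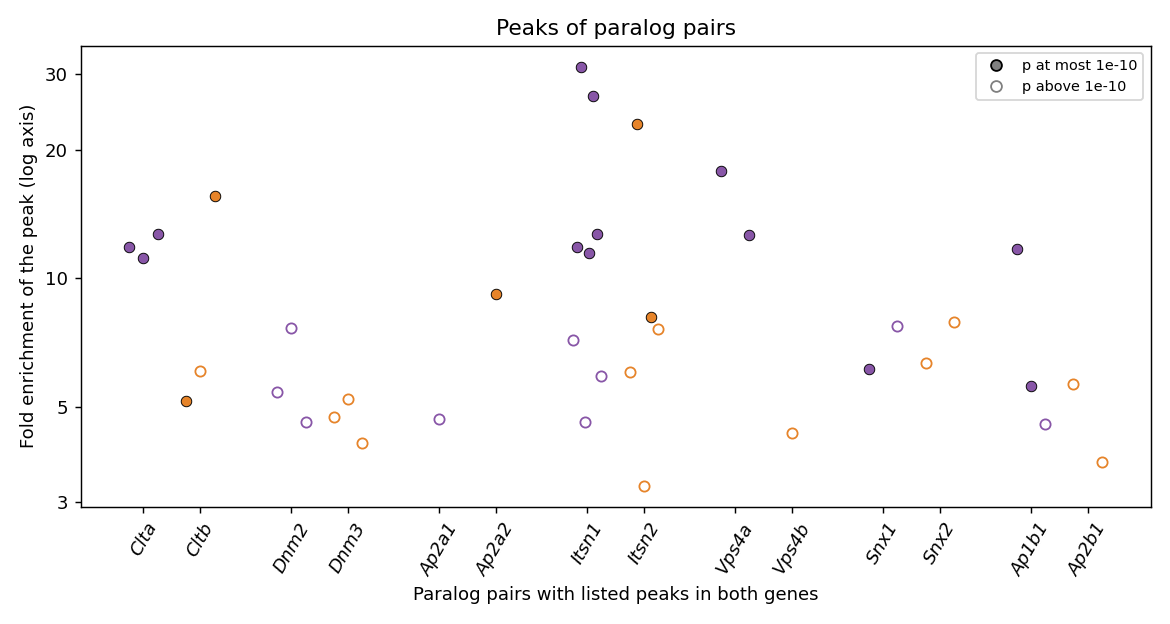
Fold enrichment (log axis) of every listed peak in the 7 pairs of related genes that both have peaks, with the gene listed first in purple and its relative in orange. Filled points have a p of at most 1e-10. Vps4a lies above Vps4b at every peak, Ap2a2 lies above Ap2a1, and Snx1 and Snx2 overlap.

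Of the members, 24 held a single peak, 13 held 2 and 16 (30.2%) held 3 or more, against 23.7% of all listed genes with 3 or more. The 5 genes with at least 5 peaks (Eea1, Itsn1, Ap3b1, Chmp3 and Itsn2) held 35 of the 120 peaks. Genes with more peaks have more chances of a high one, so highest folds are given by peak number. With 1 peak the median highest fold was 5.84 over members and 5.45 over all listed genes. With 2 peaks these medians were 7.74 and 7.18, with 3 to 5 peaks 11.7 and 9.32, and with 6 or more 11 and 12.7, the last over 3 members. Counts above the median of all listed genes in the same class were 13 of 24, 7 of 13, 7 of 13 and 1 of 3, so the members were spread on both sides of the table's typical level.

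Fold and score did not always rank a gene's peaks alike. In 9 of the 29 members with several peaks, the peak with the highest fold was not the one with the highest score. The matching share over all listed genes was not computed. In Vps4a the score was higher at 12.64-fold than at 17.81-fold, and in Chmp2b higher at 4.55-fold than at 7.16-fold. Neighbouring peaks of a gene were separated by 608 to 286381 bases, with a median of 5104, so no listed regions of a member adjoined. In 26 of the 29 genes no peak number between the gene's first and last was missing from the table. No other gene's listed peak fell between the first and last peak of any member.

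In the annotation that the authors' table gives, 28 of the 36 members with a pathway entry carried the KEGG term Endocytosis, and they made up 29.5% of the 95 listed genes with that term. Their median highest fold was 7.7 against 7.1 over the 95. The term Lysosome was carried by 10 members, all of AP-1, AP-3 or the clathrin light chains, with a median highest fold of 12.2 against 6.46 over its 18 listed genes. The term Synaptic vesicle cycle was carried by 8 members, of AP-2, the clathrin light chains and the dynamins, with a median of 6.84 against 12.2 over its 23 listed genes. The members' median thus stood above that of the whole lysosome term and below that of the whole synaptic vesicle term in this table. Both whole-term medians include the members, which were 55.6% of the lysosome genes and 34.8% of the synaptic vesicle genes. Peak number was not allowed for here. The rule itself put coat genes into these terms, so the counts are descriptions.

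Partners of the machinery that the rule did not take were listed about as often. Of 94 such genes, 45 (47.9%) had a peak, against 17.3% of all coding genes. Of these 45, 21 had a p of at most 1e-10, against 40.6% of listed genes. The median highest fold of the 45 was 7.38 against 7.65 in the members. The partner lists were drawn up with earlier results of these data known. Accessory and uncoating factors of the pit were listed in 19 of 33 cases (57.6%). They were led by Hspa8, the chaperone that strips clathrin off vesicles (28.84-fold), Aak1, a kinase of AP-2 (27.75), and the membrane-bending amphiphysins Bin1 (23.65) and Amph (17.28). Hspa8 has many processed copies, so its value is uncertain. Of 13 further ESCRT genes, 9 (69.2%) were listed. Mvb12b and the deubiquitinase Usp8 stood at 11.87-fold, Stambp, another deubiquitinase, at 9.75 and Snf8 of ESCRT-II at 8.7. Of 17 genes of endosomal phosphoinositides and tethers, 9 (52.9%) were listed. The highest were Rabep1, a partner of the GTPase RAB5 (20.84), Fig4 (6.93) and the lipid kinase Pikfyve (6.4). WASH and Commander genes of the partner lists were listed in 4 of 18 cases (22.2%), near the 17.3% of all coding genes. Among them were Ccdc93 at 8.03-fold and Washc2c at 7.55. Sorting receptors and GGA adaptors had 4 of 13 (30.8%), with the endocytic receptor Lrp1 at 15.7-fold and the transferrin receptor gene Tfrc at 7.82.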

How the data were processed

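The data were 1 deposited table of m6A peaks of the Pb-IP over the Pb-Input library. Per the labels' protocols, RNA was pulled down with a commercial m6A kit and libraries were directional. STAR, HISAT2 2.0.4 and cutadapt 1.9.3 appear in the submitters' processing notes, with no step assigned to them. Peak names are those of MACS, per the file headers, and the caller's thresholds, genome build and gene models were not given in the sources used here. Fold enrichment was deposited as a linear ratio. The score was deposited as 10 times the −log10 of p, and the 2 score columns were equal in all rows. The deposited percent false discovery rate was 100 in each of the 8512 rows, so p was used. Printed starts are the deposited ones plus 1.

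All 120 member peaks matched the RefSeq gene table of GRCr8 by symbol, each on the chromosome its gene has there. Pseudogenes are named after 9 of the 53 members there (Ap1b1, Ap2b1, Ap2m1, Ap3s1, Chmp5, Chmp6, Snx4, Vps36 and Vps54), and reads of these genes may be shared. The table has no strand column, so overlapping genes cannot be told apart. Members and lists were chosen with earlier results of these data known. Every member is named; every peak is given for members at 10-fold or more or with 3 or more peaks and for the strongest of each role, and up to 4 partner genes per list. No region's sequence is printed because no genome of the table's build was used. Scripts used matplotlib 3.10.9, SciPy 1.17.1, numpy 2.4.6 and pandas 2.3.3 under Python 3.11.15, and were tested on simulated data. Alternatives were stricter p limits, a 5-fold minimum, merging within 200 bases, removal of regions under 100 bases, naming and doubtful loci, and the mean fold per gene.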

Additional observations from a re-analysis of the deposited data

How the results depend on the processing

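The p limit mattered most. At a p of at most 1e-5 (1e-10) there were 62 (46) member peaks in 30 (25) genes, which is 25.2% (21%) of the rule-named genes. The median fold of peaks was then 9.52 (11.5) and the median highest fold of genes 10.3 (11.5). The share of peaks at 10-fold or more was 48.4% (65.2%), and 8 (5) genes had 3 or more peaks. Over all listed peaks the median fold was also higher at a p of at most 1e-10, at 10.1 against 5.9 without a limit. The share of all coding genes listed at these limits was not computed. Nor were the shares of all listed peaks at 10-fold or more and of all listed genes with 3 or more peaks. The members' values at these limits therefore do not set them apart from the table. With a minimum of 5-fold, the median fold of peaks was 7.83, 10 genes had 3 or more peaks and 35.3% of rule-named genes were listed, the minimum itself removing the low peaks. The other 53 of 70 values stayed within 1.5 times the reported count, or within the 95% binomial interval of the reported share or median. They came from the 5-fold minimum, merging within 200 bases, leaving out regions under 100 bases, and the rule on current symbols. They also came from leaving out doubtful loci, leaving out Hgsnat and Vps72, and the mean fold of a gene. The rest came from leaving out genes with named copies, a setting added after the data were seen. Merging and leaving out doubtful loci could move no value, because no member regions lay within 200 bases and no member peak was doubtful. Their 8 values each are therefore no check. The interval treats peaks or genes of 1 library pair as independent draws, so it is only a yardstick. No paired analysis was possible because each group held 1 library. Without read counts or replicates, depth limits every value to an unknown degree.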
